A study of Mus musculus with 10 samples.

Results

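Creatine carries high-energy phosphate in cells with bursts of energy use, and its synthesis draws on the methyl cycle. Gatm, an arginine:glycine amidinotransferase, makes guanidinoacetate from arginine and glycine, and Gamt methylates guanidinoacetate to creatine with S-adenosylmethionine as the methyl donor. Mat1a and Mat2a make S-adenosylmethionine from methionine, Gnmt spends it on glycine, and Ahcy clears the S-adenosylhomocysteine that every methylation leaves. Cbs and Cth turn the resulting homocysteine into cysteine, and Slc6a8 takes up creatine from outside the cell. The acinar cells of the pancreas are known for their high content of Gatm.

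The 9 genes were chosen by symbol from the 24062 genes counted in pancreas RNA, and all 9 were found. KSR23 mice join R23, an IL-23 cassette at ROSA26 kept silent by a floxed STOP, with K14-cre, whose promoter is active in keratinocytes. Pancreases of 5 WT and 5 KSR23 pups, C57BL/6, were collected at postnatal day 5, with 1 library for each label. The alleles of the WT pups are not given beyond wild type, and nothing in the labels ties a WT library to a KSR23 library. Il23a, which encodes a subunit of IL-23, had 0.179 CPM (counts of a gene scaled to an equal library size, with TMM factors) in WT and 1.07 CPM in KSR23 pancreas. The groups did not overlap, with 0.0373 to 0.316 CPM in WT and 0.857 to 1.21 CPM in KSR23 libraries. Il23a was not tested, since its counts in WT libraries were too few. Krt14, the source of the Cre promoter, had 2.03 CPM in WT and 2.21 CPM in KSR23 pancreas, and Krt5, its partner in keratinocytes, had 0 counts in every library.

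Between 26830235 and 33189132 reads fell on genes in the WT libraries, and between 16715976 and 57784136 in the KSR23 libraries. A level of 3 counts, taken as the floor of detection, was 0.0536 to 0.168 CPM, and floors cover counting error only. WT replicates 1 and 2 held 19731 and 21233 counts of the IL-22 target Reg3b, against 415, 150 and 127 in the other 3 WT libraries, so results were also computed without these 2 libraries, and are given where a call was lost or a value moved by over 1.5 times. Acinar markers were abundant in every library, with the 12 listed genes summing to 208740 to 229700 CPM in WT and 133500 to 166530 CPM in KSR23 mice. In whole tissue, fewer cells of a type and less RNA per cell cannot be told apart.

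Of the 9 genes, 6 fell in KSR23 pancreas, Cth alone rose, and Mat1a and Slc6a8 did not pass the test. Gamt and Gatm, the enzymes that make creatine, fell most, with a log2 fold change (log2 FC, KSR23 minus WT) of -1.03 (standard error 0.0673) and -0.86 (standard error 0.0795). A gene was called changed when edgeR's quasi-likelihood test gave an adjusted p under 0.05 over all 13882 genes that had at least 5 counts in every library. All 9 genes passed this count filter. By the same rule 31.0% of all genes tested were called, with 16.2% higher and 14.8% lower. The median log2 FC was -0.50 over the 9 genes and -0.01 over all genes tested. With scaling by library total alone, the calls over all genes shifted from 2250 higher and 2049 lower to 3072 higher and 1164 lower, while the 9 genes still gave 1 higher and 6 lower. The same split held without WT replicates 1 and 2.

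**Figure D1:**
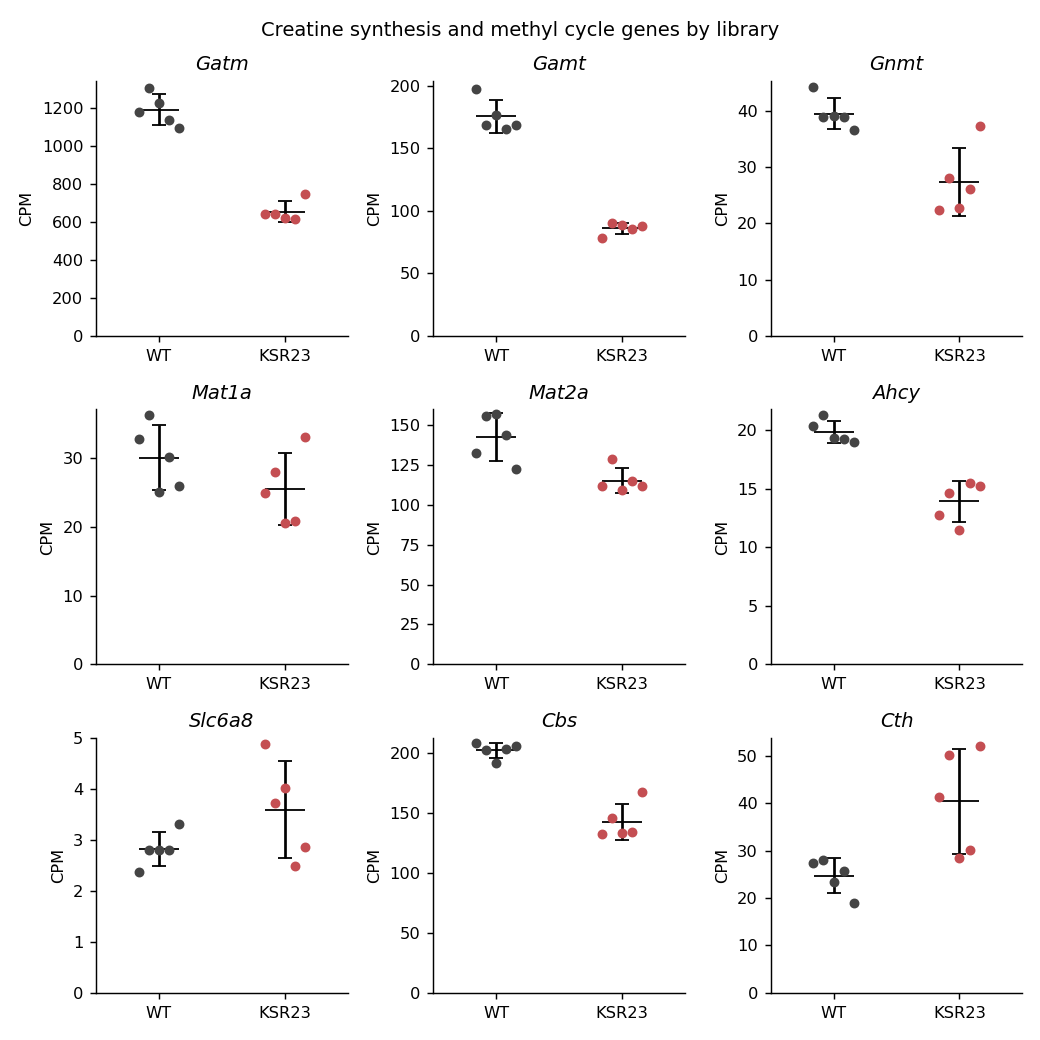
Level of each of the 9 genes in CPM, on axes that start at 0, with 1 point for each library of 5 WT (dark) and 5 KSR23 mice (red). The line is the group mean and the bar its SD, and the groups stand apart in Gatm, Gamt, Ahcy, Cbs and Cth.

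Gatm encodes the mitochondrial enzyme of the first and committed step of creatine synthesis (chromosome 2, 122594467 to 122611303, minus strand, GRCm38). The WT libraries held 1178, 1304, 1224, 1135 and 1094 CPM, and the KSR23 libraries 639, 643, 622, 614 and 748 CPM. The groups did not overlap, and the KSR23 mice were close to each other apart from replicate 5. The mean fell from 1187 ± 81.3 to 653 ± 54.4 CPM (SD, n = 5 each), which left 0.55 times the WT level (edgeR adjusted p = 1.86e-07). Groups did not overlap in 5 of the 9 genes, 4 lower and 1 higher, and in 19.4% of all genes tested, with 8.74% lower and 10.7% higher. In WT mice, the CPM of Gatm was above that of 99.7% of the genes tested.

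Gamt encodes guanidinoacetate N-methyltransferase, which completes creatine (chromosome 10, 80258151 to 80261012, minus strand). It had 198, 169, 177, 165 and 169 CPM in the WT libraries. The KSR23 libraries had 78.3, 90.4, 88.3, 85.1 and 87.5 CPM. No KSR23 value came near the lowest WT value. The mean fell from 175 ± 13.2 to 85.9 ± 4.67 CPM (SD, n = 5 each, edgeR adjusted p = 2.21e-09), a fall of 2.04 times.

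The 250 bases before the annotated start are shown for Gatm and Gamt, of creatine synthesis, and Gnmt, of glycine methylation, which were all called lower. The sequences are those of RefSeq on GRCm38.p6, 5′ to 3′ on the gene's strand, at chr2:122611278-122611527, chr10:80261013-80261262 and chr17:46729166-46729415, all on the minus strand, and capitals mark CANNTG, the E-box.
Gatm: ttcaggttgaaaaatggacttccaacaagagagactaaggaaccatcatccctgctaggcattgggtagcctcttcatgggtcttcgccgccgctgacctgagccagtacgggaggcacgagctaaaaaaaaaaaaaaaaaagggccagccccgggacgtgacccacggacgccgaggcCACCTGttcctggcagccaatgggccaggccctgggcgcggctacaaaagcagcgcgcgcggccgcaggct
Gamt: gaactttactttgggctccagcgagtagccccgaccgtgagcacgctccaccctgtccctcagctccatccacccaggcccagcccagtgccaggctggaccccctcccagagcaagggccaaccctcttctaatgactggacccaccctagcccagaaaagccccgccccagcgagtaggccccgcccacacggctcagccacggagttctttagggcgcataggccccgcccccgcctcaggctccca
Gnmt: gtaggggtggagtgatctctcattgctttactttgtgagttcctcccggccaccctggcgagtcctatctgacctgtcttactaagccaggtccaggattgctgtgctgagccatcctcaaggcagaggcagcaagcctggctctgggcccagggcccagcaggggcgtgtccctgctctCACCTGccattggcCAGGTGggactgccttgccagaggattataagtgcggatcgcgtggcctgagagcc
The promoter table held 6 of the 9 genes, the same 6 that fell. TTCNNNGAA, the STAT element, reads the same on both strands as a pattern, and it was found in 0 of these 6 windows and in 7.02% of all 32851 windows of that length. CANNTG, also the same on both strands and not overlapping the STAT pattern here, was found in 3 of the 6 windows and in 66.2% of all windows. In Gatm it starts 71 bases before the start site, and in Gnmt 70 and 56 bases before it. A match of letters is a description and says nothing of binding.

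Gnmt encodes glycine N-methyltransferase, which turns glycine into sarcosine and so takes up S-adenosylmethionine in excess (chromosome 17, 46725664 to 46729168). Its WT libraries had 44.2, 38.9, 39.0, 38.9 and 36.6 CPM, and its KSR23 libraries 22.5, 28.03, 22.8, 26.2 and 37.4 CPM. KSR23 replicate 5 lay inside the WT range, and the other 4 KSR23 mice lay below it. Gnmt fell by 0.52 on the log2 scale (standard error 0.114, edgeR adjusted p = 0.00204). Without KSR23 replicate 5 the log2 FC was -0.67.

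Mat2a and Mat1a encode the catalytic subunits of methionine adenosyltransferase, with Mat2a in most tissues and Mat1a known as the liver form. For Mat2a (chromosome 6, 72432799 to 72439558) the WT libraries had 132, 155, 157, 144 and 122 CPM, and the KSR23 libraries 112, 128, 109, 115 and 111 CPM. Only KSR23 replicate 2 reached into the WT range. Mat2a fell by 0.30 on the log2 scale (standard error 0.0758, edgeR adjusted p = 0.00549), and with libraries scaled by their total alone by 0.21 (edgeR adjusted p = 0.0450). Its exons overlap those of Particl, a gene on the opposite strand, and it also shares sequence with Gm9523. Neither was among the genes counted, and the strand setting of the counting is not stated.

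For Mat1a (chromosome 14, 41105035 to 41124412, plus strand) the WT libraries had 32.8, 36.2, 25.04, 30.2 and 25.97 CPM, and the KSR23 libraries 24.8, 27.97, 20.6, 20.8 and 33.0 CPM. The groups overlapped over most of their range. The log2 FC of -0.23 (standard error 0.127) did not pass the test (edgeR adjusted p = 0.176). Without KSR23 replicate 5 it was -0.35 and passed (edgeR adjusted p = 0.0366), and without WT replicates 1 and 2 it was -0.08 (edgeR adjusted p = 0.712). Mat1a, Gnmt and Cbs are also liver genes, so hepatocyte markers were read in the same libraries. Of the 10 listed, 8 had too few counts to be tested, Apoh, Cyp2e1 and Otc had 0 counts in every WT library and at most 6, 2 and 4 in a KSR23 library, and Alb had 4.52 CPM in WT and 2.48 CPM in KSR23 mice. The markers summed to 146 to 183 CPM in WT and 38.5 to 44.6 CPM in KSR23 mice. Without Ttr, which islet cells also make, they summed to 4.29 to 6.66 CPM and 1.29 to 4.30 CPM, below the level of Gnmt, Mat1a and Cbs in any library.

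Ahcy encodes S-adenosylhomocysteine hydrolase (chromosome 2, 155059310 to 155074497). It was at 20.4, 21.3, 19.3, 19.3 and 19.0 CPM in the WT libraries, and at 12.7, 14.7, 11.5, 15.5 and 15.3 CPM in the KSR23 libraries. All KSR23 mice were below all WT mice. Ahcy fell by 0.50 on the log2 scale (standard error 0.0945, edgeR adjusted p = 0.000566). Of the 75-base windows of its transcript, 25.6% are found in no other annotated gene, since the copies Gm4737, Gm5638 and Gm9826 share the rest, and reads that aligned to several places were given to no gene. Its level is therefore that of part of its reads. Alignments that were not unique made up 49.6 to 53.7% of all tallied in WT and 38.5 to 42.5% in KSR23 libraries, and the part of this in the fall of Ahcy was not tested. Among the other 8 genes, 94.0% of the windows of Mat2a and all windows of the rest were unique.

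Cbs, cystathionine beta-synthase, commits homocysteine to the making of cysteine (chromosome 17, 31608894 to 31637238). The WT libraries had 208, 202, 192, 203 and 206 CPM, and the KSR23 libraries 132, 146, 133, 134 and 167 CPM. The WT mice were tightly grouped and all above the highest KSR23 mouse, replicate 5. The mean fell from 202 ± 6.18 to 142 ± 15.0 CPM (SD, n = 5 each), so Cbs fell by 0.50 on the log2 scale (standard error 0.0703, edgeR adjusted p = 2.67e-05).

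Cth, cystathionine gamma-lyase, releases cysteine from the product of Cbs (chromosome 3, 157894248 to 157925077). It had 27.5, 28.02, 23.5, 25.7 and 18.9 CPM in the WT libraries and 41.3, 50.2, 28.4, 30.03 and 52.1 CPM in the KSR23 libraries. KSR23 replicates 3 and 4 stood just above the highest WT mouse, and the other 3 KSR23 mice well above it. Cth rose by 1.64 times (log2 FC 0.71, standard error 0.152, edgeR adjusted p = 0.00162). The mean was 40.4 ± 11.03 CPM in KSR23 and 24.7 ± 3.72 CPM in WT mice (SD, n = 5 each).

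Slc6a8, the creatine transporter on the X chromosome (73673150 to 73682502), was the least abundant of the 9 genes, with 68 to 89 counts in each WT library. Its WT libraries had 2.38, 2.82, 2.81, 2.81 and 3.32 CPM, and its KSR23 libraries 4.88, 3.73, 4.03, 2.49 and 2.86 CPM. KSR23 replicates 1, 2 and 3 lay above all WT mice and the other 2 inside the WT range. The log2 FC of 0.34 (standard error 0.191) did not pass the test (edgeR adjusted p = 0.190). Without KSR23 replicate 1, the highest library, it was 0.19 (edgeR adjusted p = 0.496), and leaving out other single libraries gave 0.28 to 0.45. Both groups held mice of both sexes, as read from Xist and Ddx3y, with Xist the higher in 3 WT and 2 KSR23 libraries.

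**Figure D2:**
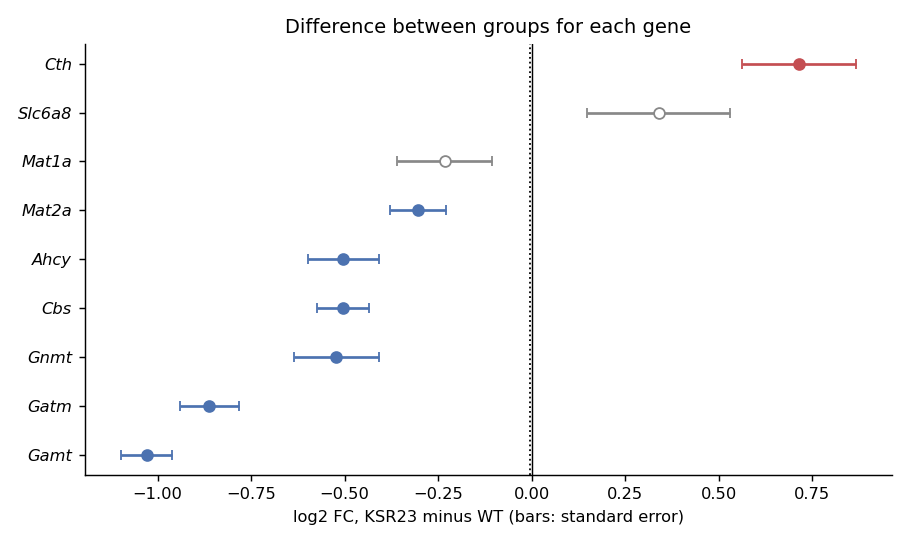
Log2 FC of the 9 genes, KSR23 minus WT, with bars of 1 standard error from edgeR's quasi-likelihood fit. Blue genes were called lower, the red gene higher and open genes were not called; the solid line is 0 and the dotted line the median of all genes tested.

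Levels of different genes were compared as CPM per kilobase of the longest RefSeq-matched coding transcript of GENCODE M21. In WT mice the order from the top was Gatm at 497 ± 34.0, Gamt at 178 ± 13.4, Cbs at 79.8 ± 2.44, Mat2a at 41.9 ± 4.41 and Gnmt at 38.2 ± 2.71 CPM per kilobase (SD, n = 5). Cth, Mat1a, Ahcy and Slc6a8 followed, with 13.6 ± 2.05, 8.66 ± 1.35, 7.81 ± 0.381 and 0.713 ± 0.0834. The ranges of Mat2a and Gnmt overlapped, as did those of Cth and Mat1a and of Mat1a and Ahcy, and the other neighbours in this order did not overlap. The order of the means was the same in KSR23 mice, where Gatm had 273 ± 22.8 and Gamt 87.0 ± 4.73 CPM per kilobase. There, Gnmt at 26.4 ± 5.86 and Cth at 22.3 ± 6.08 overlapped. The position of Ahcy rests on the part of its reads that was counted.

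**Figure D3:**
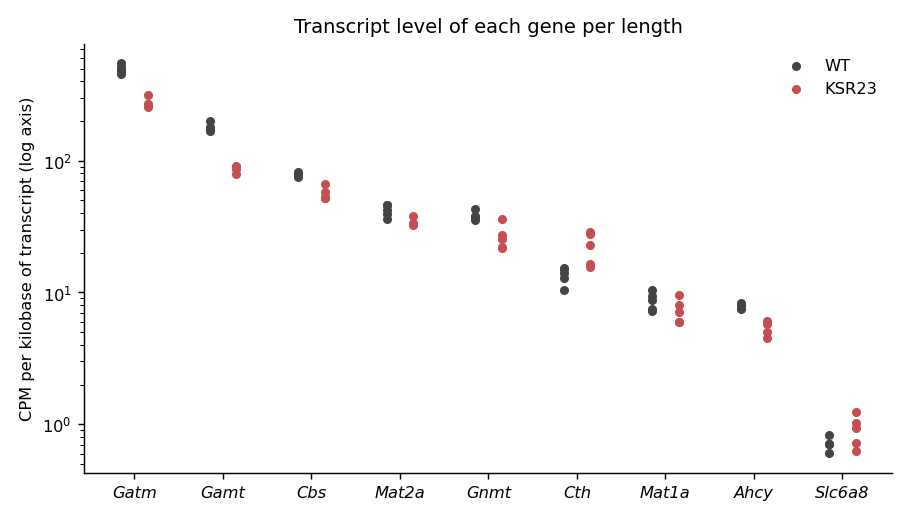
CPM per kilobase of transcript on a log axis for the 9 genes, ordered by their mean in WT mice, with 1 point for each of 5 WT (dark) and 5 KSR23 (red) libraries. Gatm was the most and Slc6a8 the least abundant in both groups, and Cth lay close under Gnmt in KSR23 mice.

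Taking a ratio within a library largely cancels its scaling. For 4 ratios the group means were compared by exact permutation of the 10 mice (two-sided), with p-values adjusted over the 4. The log2 ratio of Cbs to Cth counts was 2.92, 2.85, 3.03, 2.98 and 3.44 in WT mice, and 1.68, 1.53, 2.22, 2.16 and 1.68 in KSR23 mice. All KSR23 mice were lower, by 1.19 on average (adjusted p = 0.0159 in the exact permutation test). Gatm to Gamt did not separate the groups, at 2.76 ± 0.137 in WT and 2.92 ± 0.129 in KSR23 mice (SD, n = 5 each, exact permutation, adjusted p = 0.127). Without WT replicate 2 this difference rose from 0.16 to 0.21 (exact permutation, adjusted p = 0.0212). Mat1a to Mat2a was -2.25 ± 0.243 in WT and -2.19 ± 0.277 in KSR23 mice (SD, n = 5 each), a difference of 0.05 (exact permutation, adjusted p = 0.754). Without WT replicates 1 and 2 this difference was 0.18 (exact permutation, adjusted p = 0.411), and without WT replicate 3 or KSR23 replicate 5 it was below 0.

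Gatm was also set against acinar enzymes of the same library, the sum of Cpa1, Cela1, Ctrb1, Pnlip, Cel, Amy2b and Cpb1. The log2 ratio was -7.53, -7.34, -7.52, -7.63 and -7.55 in WT mice, and -7.69, -7.86, -7.80, -7.92 and -7.79 in KSR23 mice. It was lower in every KSR23 mouse, by 0.30 on average (adjusted p = 0.0159 in the exact permutation test), so Gatm fell by more than this sum. Cel, Ctrb1 and Cpb1 made up most of the sum, at 84453, 58745 and 39119 CPM in WT mice. Their log2 FCs of -0.59, -0.13 and -0.54 were smaller falls than that of Gatm, and Ctrb1 did not pass the test (edgeR adjusted p = 0.371). The other enzymes of the sum fell by more than Gatm, with log2 FCs of -2.53 for Cela1, -1.85 for Pnlip, -1.37 for Cpa1 and -1.34 for Amy2b. Of the 12 acinar markers 10 fell, while 14.8% of all genes tested were called lower. Their log2 FCs ran from -2.53 to 0.05 with a median of -0.56, and those of the 9 genes from -1.03 to 0.71 with a median of -0.50. Of 7 duct markers 6 rose and none fell, and all 7 myeloid markers rose. Myeloid markers summed to 95.7 to 113 CPM in WT and 133 to 313 CPM in KSR23 mice, and duct markers to 1146 to 1253 and 1862 to 2023 CPM. In KSR23 replicate 5, Ptprc, Itgam, Csf1r and Emr1 lay inside the WT range, and Cd68, S100a8 and S100a9 above it. S100a8 and S100a9 reached 76.4 and 73.5 CPM in KSR23 replicate 3. Islet markers summed to 8126 to 11385 CPM in WT and 5007 to 6310 CPM in KSR23 mice, with 6 of 9 lower and 1 higher. The part of these shifts between cell types in the values of the 9 genes was not tested.

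**Figure D4:**
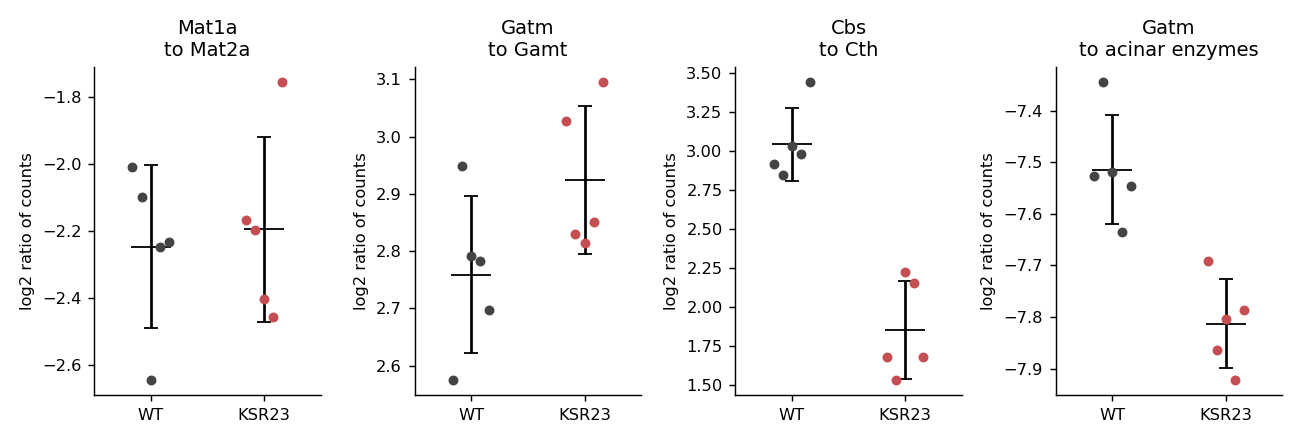
Log2 ratio of counts within each library for 4 pairs, with 1 point for each of 5 WT (dark) and 5 KSR23 (red) mice, the group mean as a line and the SD as a bar; the axes span different ranges and do not start at 0. Cbs to Cth and Gatm to the acinar enzyme sum do not overlap between the groups, and the other 2 ratios do.

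Within the groups, some of the 9 genes varied together and others did not. Over the 10 libraries with each group's mean removed, Pearson's r of log2 CPM was 0.91 between Mat1a and Cth and 0.90 between Cbs and Gnmt. It was 0.12 between Gatm and Gamt, 0.01 between Gamt and Mat2a and -0.12 between Mat2a and Cbs. Slc6a8 had a negative r with each of the other 8 genes, from -0.74 with Ahcy to -0.10 with Mat2a. KSR23 replicate 5, the deepest library, had the highest KSR23 value of Gatm, Gnmt, Mat1a, Cbs and Cth. These correlations share libraries, scaling and depth and are given as a description. Gatm was most like Gcsh, Mapk8, Dnajc22, Dhcr7 and Hnmt over the 10 libraries (r of 0.99, 0.99, 0.99, 0.99 and 0.99, and 0.75 to 0.84 with group means removed). Gamt was most like Ttr, Ctrl, Vtn, Gstm2 and Cela1 (r of 0.99 for each, and 0.39 to 0.61 with group means removed). The genes most like Cth were 2410016O06Rik, Aen, Pdia3, Creld2 and Slc7a3, with r of 0.94 to 0.98, and of 0.90 to 0.95 with group means removed.

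Around the 9 genes, 75 genes of 8 neighbouring routes were listed, of which 64 passed the count filter. Among them 11 rose, 20 fell and 33 did not pass the test, so 48.4% were called against 31.0% of all genes tested, and their median log2 FC was -0.07. Without WT replicates 1 and 2, 9 rose and 15 fell, and lost calls were followed gene by gene only for the neighbours named by rule. With scaling by library total alone, 13 rose and 14 fell.

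Creatine is used through creatine kinases. Of 5 listed genes of creatine use and export, 3 were tested, of which 2 rose and none fell. The brain-type kinase Ckb had 28.1, 25.6, 27.9, 21.5 and 26.6 CPM in WT mice and 56.5, 51.7, 67.2, 54.6 and 48.1 CPM in KSR23 mice, without overlap. It rose by 1.10 on the log2 scale (standard error 0.0939, edgeR adjusted p = 6.91e-08). The mitochondrial kinase Ckmt1 rose by 0.65 (edgeR adjusted p = 0.00396), while the creatine transporter Slc16a12 had a log2 FC of -0.22 and was not called. The muscle kinases Ckm and Ckmt2 had too few counts to be tested, with 0.373 and 0.0327 CPM in WT and 0.0131 and 0.00593 CPM in KSR23 mice. WT replicate 4 held 37 counts of Ckm, against 2 to 8 in the other WT libraries. It also held 824 counts of the skeletal muscle marker Acta1, against 16 to 43 in the other WT libraries.

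On the arginine side of Gatm, 1 gene rose and 3 fell of 8 tested. The arginine transporter Slc7a2 fell by 0.97 on the log2 scale (edgeR adjusted p = 0.000129), from 8.15 ± 0.778 to 4.19 ± 0.929 CPM (SD, n = 5 each). Arg2, the mitochondrial arginase, rose from 0.972 ± 0.343 to 1.95 ± 0.379 CPM (log2 FC 0.998, edgeR adjusted p = 0.00724). On the glycine side, all 4 genes tested were called. Pipox, which oxidizes sarcosine, the product of Gnmt, fell from 22.5 ± 1.74 to 7.99 ± 1.56 CPM (log2 FC -1.51, adjusted p = 2.62e-08). Gcsh, a subunit of the glycine cleavage system, fell by 0.63. Sardh, which also oxidizes sarcosine, rose by 0.61, and Chdh, the choline dehydrogenase, rose by 0.84 (edgeR adjusted p = 0.000126). The remaining 3 genes of the glycine list, Gldc, Amt and Dmgdh, had too few counts. Gldc and Amt, which belong to the same cleavage system as Gcsh, had 0.373 and 0.398 CPM in WT and 0.150 and 0.167 CPM in KSR23 mice.

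Of 7 tested genes of the methyl cycle and remethylation, 2 fell and none rose, so 28.6% were called against 31.0% of all genes tested. Adk, which removes the adenosine that Ahcy makes, fell by 0.35 on the log2 scale (edgeR adjusted p = 0.000528), and Ahcyl1, a relative of Ahcy, by 0.23. Mat2b, the regulatory partner of Mat2a, had a log2 FC of -0.01, and methionine synthase Mtr one of -0.18, neither of which passed. Bhmt, the betaine-dependent enzyme of liver and kidney, had 0 or 1 read in the libraries. Of 7 methyltransferases of small molecules, Hnmt, the histamine methyltransferase, fell from 6.57 ± 0.996 to 2.75 ± 0.306 CPM (SD, n = 5 each), a log2 FC of -1.25 (edgeR adjusted p = 3.99e-06). Nnmt fell by 0.49. As3mt was called higher (log2 FC 0.29, adjusted p = 0.0276), but lost its call in 8 of 19 alternatives. In 6 of these WT replicate 1, 2 or 4 or KSR23 replicate 2, 4 or 5 was left out alone, with edgeR adjusted p-values up to 0.0650. Without both WT replicates 1 and 2 the log2 FC of As3mt was 0.22 (edgeR adjusted p = 0.151).

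Among genes of serine synthesis and folate one-carbon transfer, 7 of 16 fell and 2 rose. The cytosolic formyltetrahydrofolate dehydrogenase Aldh1l1 rose the most, with 20.4, 18.3, 16.4, 19.4 and 22.2 CPM in WT mice and 52.9, 51.8, 55.2, 59.9 and 56.1 CPM in KSR23 mice. Its log2 FC of 1.51 (standard error 0.0824, edgeR adjusted p = 1.80e-10) was larger than that of any of the 9 genes. Its mitochondrial relative Aldh1l2 fell by 0.50 (edgeR adjusted p = 0.00941). Phgdh, Psat1 and Psph, the 3 enzymes of serine synthesis, fell by 0.25, 0.46 and 0.31 (edgeR adjusted p = 0.0384, 0.0184 and 0.0091). The groups overlapped in Phgdh and Psat1 and not in Psph, and these 3 genes were not followed without WT replicates 1 and 2. The difference between Aldh1l1 and Aldh1l2 was not tested.

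Past Cth, cysteine enters glutathione or is oxidized. Gclc, the catalytic subunit of glutamate-cysteine ligase, rose from 32.9 ± 1.55 to 51.6 ± 6.75 CPM (SD, n = 5 each), a log2 FC of 0.65 (edgeR adjusted p = 1.58e-05). Gss rose by 0.35, while the regulatory subunit Gclm had a log2 FC of -0.23 and was not called. Cdo1, the cysteine dioxygenase, fell by 0.30, and Tst, a thiosulfate sulfurtransferase, by 0.38 (edgeR adjusted p = 0.0189). Tst lost its call without WT replicate 3 (edgeR adjusted p = 0.0549), without KSR23 replicate 4 (edgeR adjusted p = 0.0538) and with libraries scaled by their total alone (edgeR adjusted p = 0.0554). In the polyamine and methionine salvage list, Apip fell by 1.04 (edgeR adjusted p = 8.39e-08) and Adi1 by 0.43, both enzymes of the salvage of methionine. Sat1, which acetylates spermidine and spermine, rose by 0.40 (edgeR adjusted p = 0.00264), and the other 7 genes tested were not called.

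**Figure D5:**
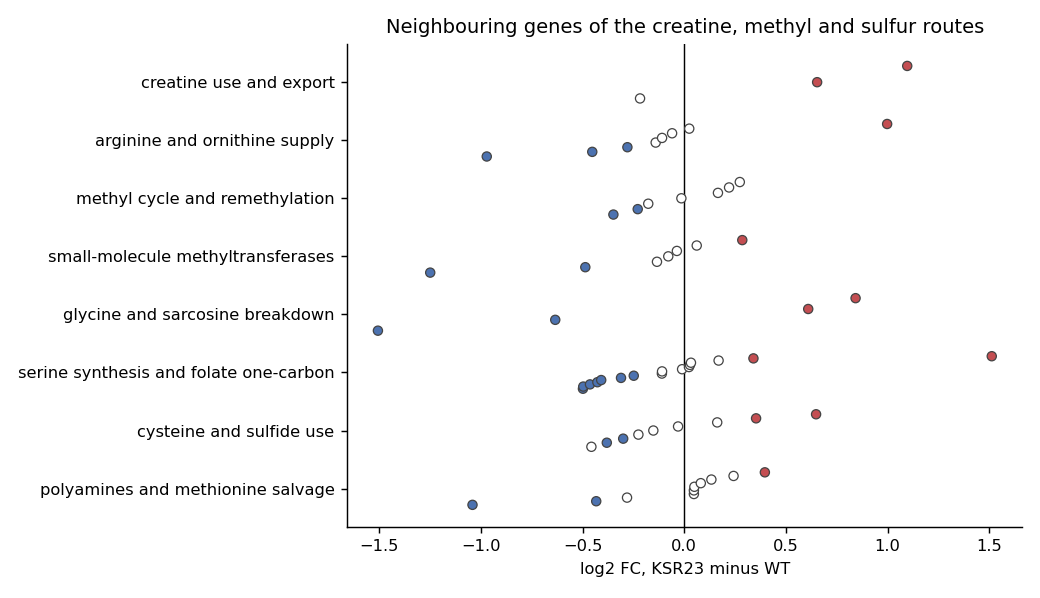
Log2 FC, KSR23 minus WT, of the 64 tested genes of 8 lists, with 1 point for each gene, ordered by value within its list. Red genes were called higher, blue genes lower and open genes were not called. Of 3 tested genes of creatine use, 2 were called, both above 0. Of 7 tested genes of the methyl cycle and remethylation, 2 were called, both below 0. Of all genes tested, 31.0% were called.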

How the data were processed

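Pancreas RNA of 5 WT and 5 KSR23 pups was primed with oligo-dT (SMART-Seq v4), without molecular identifiers named. Single-end reads of 75 bases were placed on mm10 by TopHat 2.1.0, and the deposited files hold the authors' raw counts per gene from HTSeq (0.6.1p1 in the submitters' processing notes). Annotation release and strand setting are not given in the sources used here. Tallies of unassigned alignments were kept out of library sizes. Alignments that were not unique were 38.5 to 53.7% of those tallied, and alignments on no feature or several 3.31 to 3.85%.

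A gene needed 5 or more counts in each library to be tested with edgeR 4.0.16 (TMM scaling, quasi-likelihood F test, Benjamini-Hochberg adjustment, R 4.3.3). The study used edgeR's likelihood ratio test. CPM values use TMM-scaled library sizes, and log2 CPM and ratios a prior count of 2. A standard error is the log2 FC divided by the square root of F. The fit was first tested on simulated counts, with the same dispersion for all genes. It found 99 of 99 changes of 1 on the log2 scale and 56 of 99 changes of 0.5, with 12 false calls. With no change simulated it made 0 calls. Libraries within a group differed by a chi-square per degree of freedom of 11.8 or more, beyond sampling noise. Where labels number replicates without naming animals, p-values measure the spread between these samples.

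Members and gene lists were chosen with earlier results of these data known. Named neighbours are the called gene with the largest rise and fall in each list and called genes past a log2 FC of 1 in size. Genes most like Gatm and the members with the largest rise and fall were the 5 with the highest Pearson's r of log2 CPM. Others were named after their values were seen, and the alternatives were not followed singly for these. The alternatives comprised a likelihood ratio test, DESeq2 1.42.0, 3 other scalings, 2 other filters, a prior count of 0.5 for the ratios, the replicate number as a block, leaving out each library and, added after seeing the data, leaving out WT replicates 1 and 2. Positions, transcripts and windows are from GENCODE M21 (GRCm38, the assembly of mm10), and windows were compared on both strands.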

Additional observations from a re-analysis of the deposited data

Results flagged for a closer look

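Of 26 groups of 5 values checked (9 genes and 4 ratios in each genotype), 2 held a library far from the other 4, and 1.3 such groups would arise by chance. For Gatm, KSR23 replicate 5 stood at 748 CPM, against 614 to 643 CPM in the other KSR23 mice. For Mat2a, KSR23 replicate 2 stood at 128 CPM, against 109 to 115 CPM in the others. The cause was not tested for either.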

How the results depend on the processing

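Over 19 alternatives, the number of called genes among the 9 was 7 or 8, the eighth being Mat1a without KSR23 replicate 5, and Gatm stayed between -0.92 and -0.77 and Gamt between -1.05 and -0.94 in log2 FC. Scaling libraries by their total alone changed the count of all genes called lower from 2049 to 1164, and moved the median over all genes from -0.01 to 0.09. Leaving out 1 library at a time, the difference in the log2 ratio of Mat1a to Mat2a ranged from -0.059 to 0.12 and that of Gatm to Gamt from 0.12 to 0.21. The Mat1a to Mat2a difference turned to -0.05 without WT replicate 3 and to -0.059 without KSR23 replicate 5, and was 0.18 without WT replicates 1 and 2. No pairing by replicate number was seen: deviations of same-numbered libraries correlated between -0.11 and 0.07, and 1 of 5 WT libraries was closest to its own number. The paper describes the controls as littermates, and the labels do not give litters, so this check cannot show that the mice were unpaired. With the replicate number as a block, 3749 genes were called in all, 7 of the 9 and 29 of the 64 neighbours, and As3mt lost its call (edgeR adjusted p = 0.0562). Slc6a8 had 68 to 194 counts in a library, the fewest of the 9 genes, and the part of depth in its missing call was not tested.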
